A study of Mus musculus with 10 samples.

Results

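The livers of 3 wild-type mice that carried Cre recombinase (WT Cre controls) were compared with those of 3 floxed mice that carried none (MCS controls), the 2 control groups beside the H3.3 knockout in a poly(A) RNA-seq series of 10 male mouse livers. All 6 control libraries were members, and the genes tested were those whose counts added up to 10 or more over the 10 libraries. They were 22449 of the 55421 gene identifiers in the count table. The WT Cre controls had unmodified H3f3a and H3f3b and received AAV8-Tbg-Cre, an adeno-associated virus in which the hepatocyte promoter Tbg drives Cre. The MCS controls were H3f3a fl/fl, H3f3b fl/fl mice, in which loxP sites flank both genes for histone H3.3, and received AAV8-Tbg-MCS, the same kind of vector without Cre. The 4 H3.3 KO livers combined the floxed genotype of the MCS controls with the Cre virus of the WT Cre controls. All mice were injected at 6 months of age by the retro-orbital route, and whole livers were taken 3 weeks later. The WT Cre and MCS controls differed in genotype and in virus at once, so these sources of a difference cannot be told apart, and litter, housing and time of dissection were not given in the labels. The genotype field of the labels names HIRA for the floxed mice, whereas the sample titles name H3f3a and H3f3b. The columns of the count table call all 6 livers controls and number them, and they were assigned to WT Cre controls 1 to 3 and MCS controls 1 to 3 by library number alone, so every value below rests on that match.

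Background to the gene groups that follow is brief. H3.3 is the histone H3 variant that is laid down outside DNA replication, at active genes among other places, and H3f3a and H3f3b encode the same protein. Major urinary proteins (Mup) are pheromone carriers that male mouse hepatocytes make in bulk under pulsed growth hormone, androgens, thyroid hormone and glucocorticoids. NRF2, the product of Nfe2l2, and the nuclear receptor CAR turn on enzymes that detoxify foreign or oxidising compounds, and glucocorticoids rise with the evening, with fasting and with stress, and turn on enzymes that break down amino acids.

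The 6 control libraries were of like depth, with 20862860 to 26096141 counts. Within a group, pairs of libraries differed by a chi-square of 11.2 to 46.7 per degree of freedom, where counting error alone gives about 1, so no file repeated another. Albumin took 8.57% to 10.1% of the counts in each control liver. MCS control 3 stood apart from the other control livers. Its pairs with MCS controls 1 and 2 gave 46.7 and 40.1 on that measure, where the MCS 1 and 2 pair gave 11.2. It had the lowest total and the fewest genes with any count (22527). It was also the highest of the 6 control livers in 24 of the 26 acute phase genes and 12 of the 13 heat shock genes, against 21% of all tested genes. The acute phase genes that marked it are induced in hepatocytes by inflammation. Saa1, serum amyloid A, was at 1706 CPM (counts per library total after TMM adjustment) in that liver and at 17.4 to 58.3 CPM in the other 5. Mt2, a metallothionein that binds zinc and copper, was at 757 CPM against 0.667 to 3.01 CPM. Lcn2, the siderophore-binding lipocalin, was at 91.7 CPM against 1.29 to 4.73 CPM. In a principal component analysis of the 1000 most variable genes of the 6 livers, the first component (58.0% of the variance) parted WT Cre (18.7 to 29.5) from MCS (-37.3 to -13.8), and the second (17.9%) set MCS control 3 (-21.9) apart from MCS controls 1 and 2 (15.5 and 16.7). WT Cre control 2 stood apart in other genes, being highest of the 6 in 29 of 32 interferon-stimulated genes (14.3% over all genes). WT Cre control 3 stood apart in genes that differ by sex, being lowest in 18 of 24 male-biased genes (16.5% over all genes) and highest in 19 of 32 female-biased genes (15.4% over all genes).

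**Figure D1:**
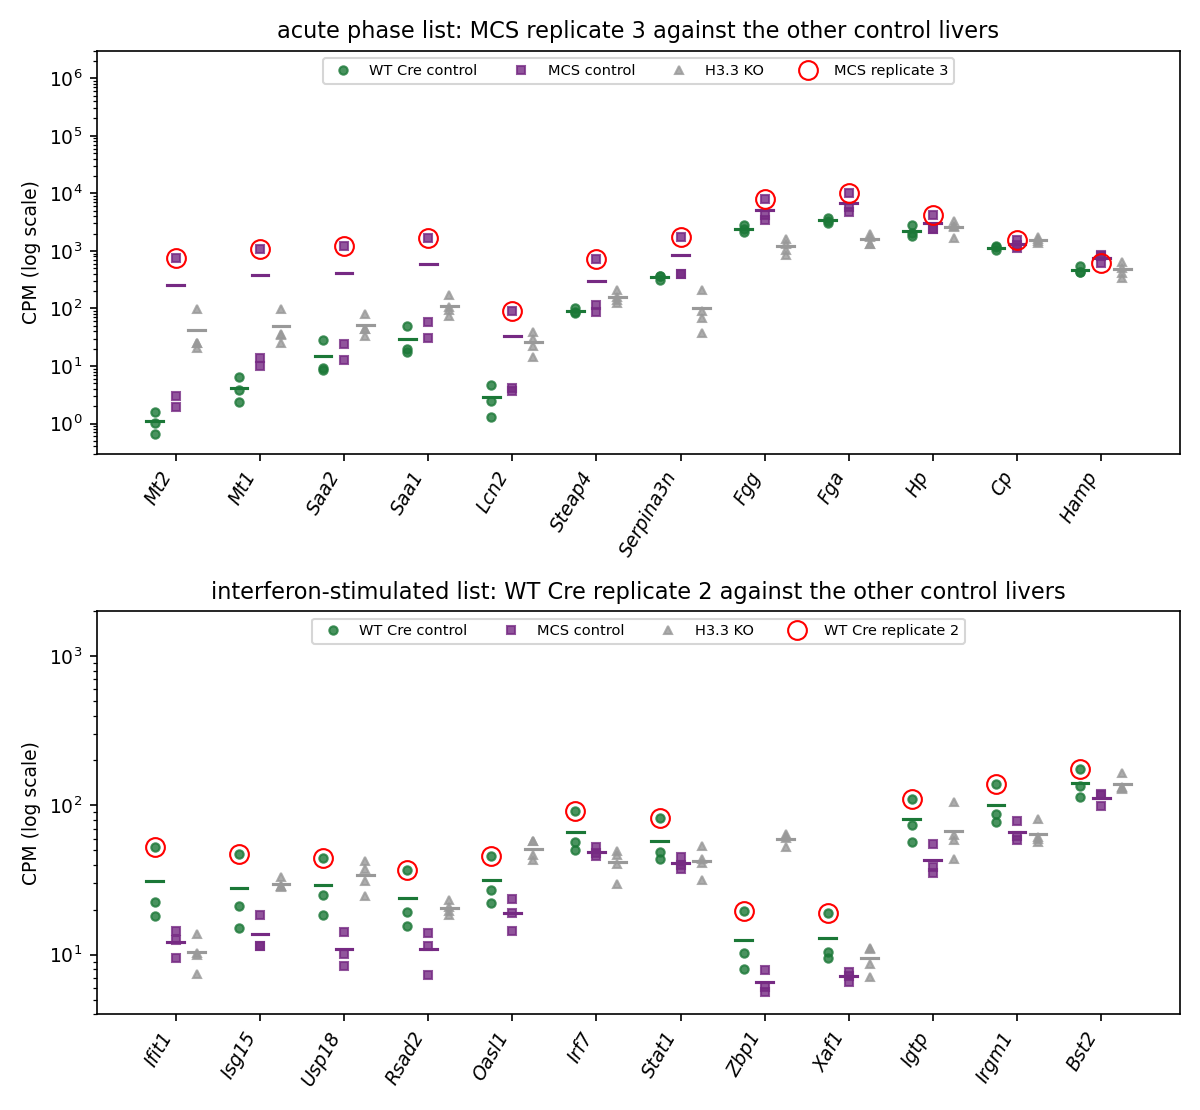
CPM on a log scale of 12 acute phase genes (top) and 12 interferon-stimulated genes (bottom) in each liver, with points for libraries, bars for group means and a red ring around MCS control 3 (top) or WT Cre control 2 (bottom). MCS control 3 lay far above the other 5 control livers for Mt2, Mt1, Saa2, Saa1 and Lcn2 (Saa1 1706 CPM against at most 58.3 CPM), and WT Cre control 2 was the highest control liver for every interferon-stimulated gene plotted.

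The floxed genes themselves were at like levels in both control groups, as was the chaperone named in the genotype field. H3f3a was at 59.9, 63.5 and 61.3 CPM in WT Cre controls 1 to 3 and 63.7, 63.4 and 61.03 CPM in MCS controls 1 to 3 (log2 fold change -0.03 ± 0.104 SE, adjusted p = 0.97; edgeR quasi-likelihood F test, Benjamini-Hochberg adjusted over all tested genes, positive values meaning higher in the WT Cre controls). H3f3b was at 158, 167 and 142 CPM and 136, 153 and 204 CPM in the same order (log2 fold change -0.08 ± 0.17 SE, adjusted p = 0.932). In the 4 H3.3 KO livers H3f3a was at 15.97 to 19.01 CPM and H3f3b at 39.8 to 56.7 CPM, below every control liver. Hira, which encodes the chaperone that deposits H3.3 at active genes, was at 6.25, 7.76 and 7.38 CPM and 8.71, 7.37 and 5.48 CPM (log2 fold change -0.01 ± 0.18 SE, adjusted p = 0.991). The 2 groups overlapped for all 3 genes, and the sign of these small differences changed with the scaling, as given in the closing section. Of 10 genes for H3.3 and its chaperones, none passed an adjusted p of 0.05, and their median log2 fold change was -0.05, with a median of 0 over all tested genes. Nnt, the mitochondrial transhydrogenase that carries a deletion in C57BL/6J but not in C57BL/6N mice, was at 3.21, 2.603 and 3.29 CPM in the WT Cre and 4.23, 4.82 and 6.204 CPM in the MCS controls (log2 fold change -0.74 ± 0.198 SE, adjusted p = 0.123), and none of the 6 tested genes known to differ between those substrains passed.

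Between the 2 control groups 144 genes passed an adjusted p of 0.05 with an absolute log2 fold change over 1 (DEGs), which was 0.641% of all tested genes. Of these, 67 were higher in the WT Cre controls (0.298%) and 77 were lower (0.343%). Without the threshold on size 208 genes passed (0.927%), 99 higher (0.441%) and 109 lower (0.486%), and 2397 genes had an unadjusted p under 0.05. The median absolute log2 fold change of the DEGs was 2.08, and in each of the 144 the 3 libraries of one group lay beyond the 3 of the other. That pattern held for 22.2% of all tested genes, with the WT Cre libraries above in 11% and below in 11.2%. Protein-coding genes made up 107 DEGs (53 higher, 54 lower), 0.699% of the 15297 tested, and long intergenic RNAs 16 (4 higher, 12 lower), 1.74% of 918. Another annotated gene overlapped 64 DEGs, a share that was not counted over all tested genes. Reads of overlapping genes may not be told apart where the strand setting of the counting was not stated. The number of DEGs moved with every library: it was 77, 79 and 66 without WT Cre control 1, 2 or 3 and 117, 83 and 85 without MCS control 1, 2 or 3, with 62 to 94 of the original 144 among them. With the replicate number as a block it was 221 (118 higher, 103 lower), of which 131 were among the 144. Only an H3.3 KO liver bears the number 4, so that library added nothing to the spread in the block fit. With library size alone in place of TMM, 116 of 185 DEGs were higher, since all genes then shifted by a median of 0.14. All 144 kept their sign in each of these fits. Genes named below kept their call with any 1 control library left out unless stated.

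**Figure D2:**
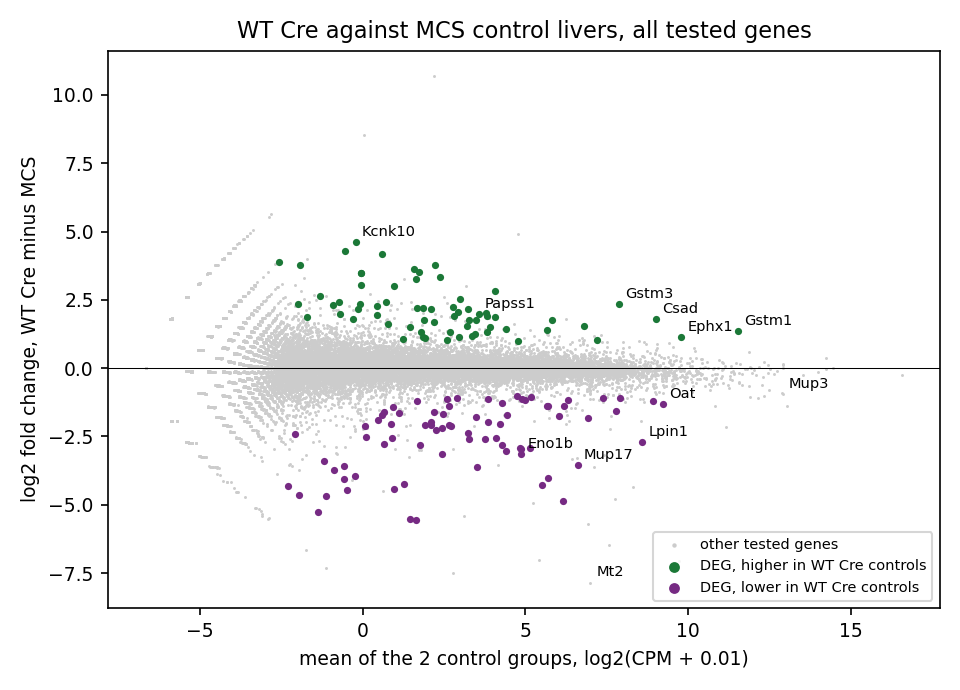
Log2 fold change of WT Cre minus MCS controls (vertical axis) against the mean level of the 2 control groups (log2 of CPM plus 0.01, horizontal axis) for the 22449 tested genes, with the 67 DEGs higher and the 77 lower in WT Cre controls in colour. Kcnk10, Papss1, Gstm3, Csad, Ephx1 and Gstm1 are named among the DEGs that were higher and Eno1b, Mup17, Lpin1 and Oat among those that were lower, while Mt2 and Mup3 are named but were no DEGs.

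The Mup family was lower in the WT Cre controls almost throughout. Of its 22 tested genes, 10 passed the test, all lower, and 9 of them were DEGs, where 0.343% of all tested genes were lower DEGs. In 21 of the 22 every WT Cre liver lay below every MCS liver (11.2% of all genes), and the median log2 fold change was -2.48, with 0 over all genes. The exception was Mup20, also called darcin, the male pheromone that attracts females, at 1265, 1508 and 1728 CPM in WT Cre and 1173, 1154 and 1232 CPM in MCS controls (log2 fold change 0.34 ± 0.32 SE, adjusted p = 0.798). The genes lie in 1 cluster on chromosome 4. Between 60 and 70 Mb 9 of 83 tested genes were DEGs, 1 of them a Mup pseudogene outside the 22 genes. The transcripts of the 22 genes are near copies: their 231 pairs shared 84.11% to 99.77% of their aligned bases (median 98.49%), with 121 pairs over 95%. The authors' handling of reads that match several genes was not stated, so the split of reads among Mup genes is uncertain, and 21 genes moving the same way are not 21 independent observations. Summed over the 22 genes, whatever the split, the family was at 7171, 7532 and 6642 CPM in WT Cre controls. In MCS controls the sums were 12586, 13951 and 17935 CPM, a smaller gap than the median of the single genes. Mup3, given below, made up most of the sum in each control liver. The promoters of 3 called members are printed to show how alike the cluster is upstream of its genes too (RefSeq GRCm38.p6, the build called mm10, 5′ to 3′ on the minus strand). Capitals mark bases that differ from Mup17 or fall outside the stretch aligned to it, so the Mup17 line is in lower case, and the positions are chr4:61595783-61596082, chr4:61674045-61674344 and chr4:61782175-61782474.
Mup17: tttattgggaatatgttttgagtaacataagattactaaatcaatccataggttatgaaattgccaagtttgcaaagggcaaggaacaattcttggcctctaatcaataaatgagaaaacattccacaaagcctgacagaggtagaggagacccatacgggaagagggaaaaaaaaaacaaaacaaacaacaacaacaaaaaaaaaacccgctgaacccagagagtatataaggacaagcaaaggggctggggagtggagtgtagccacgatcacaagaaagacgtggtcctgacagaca
Mup18: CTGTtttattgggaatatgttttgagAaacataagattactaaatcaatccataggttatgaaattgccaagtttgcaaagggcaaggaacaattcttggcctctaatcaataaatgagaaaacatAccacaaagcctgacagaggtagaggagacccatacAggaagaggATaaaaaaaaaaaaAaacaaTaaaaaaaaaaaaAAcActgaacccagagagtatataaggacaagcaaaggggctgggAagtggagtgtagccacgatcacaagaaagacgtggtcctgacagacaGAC
Mup19: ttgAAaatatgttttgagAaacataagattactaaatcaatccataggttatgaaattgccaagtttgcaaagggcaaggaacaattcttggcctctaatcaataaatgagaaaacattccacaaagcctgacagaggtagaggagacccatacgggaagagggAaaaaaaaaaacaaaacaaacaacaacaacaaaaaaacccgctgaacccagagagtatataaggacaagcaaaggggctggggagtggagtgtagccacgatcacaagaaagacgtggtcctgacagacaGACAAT
Mup19 shared 98.98% and Mup18 96.25% of aligned bases with Mup17, and over the 13 other Mup promoters in the table the share ran from 86.12% (Mup21) to 100% (Mup15). The motif TATATAA, searched on both strands, was in 13 of 14 Mup promoters and in 3.242% of the 32851 promoters of that length. TTCNNNGAA, the letters bound by STAT factors, was in none of the 14 windows and in 8.298% of all, which says only that these letters are absent from these windows.

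Single Mup genes differed in how far apart the groups lay and how evenly. Mup13 had the smallest adjusted p, at 1.17, 1.47 and 0.675 CPM in WT Cre and 13.2, 7.46 and 8.49 CPM in MCS controls (log2 fold change -3.14 ± 0.303 SE, adjusted p = 0.000785). Mup12 was at 6.92, 4.81 and 1.51 CPM and 68.3, 69.9 and 120.3 CPM (log2 fold change -4.29 ± 0.48 SE, adjusted p = 0.00479). Mup17 was at 21.6, 13.2 and 10.8 CPM and 189, 82.9 and 266 CPM (log2 fold change -3.56 ± 0.47 SE, adjusted p = 0.0106). In both genes WT Cre control 3 was the lowest and MCS control 3 the highest of the 6 livers. Mup9, Mup18 and Mup19 were also called with any library left out, with log2 fold changes of -2.09, -2.598 and -2.37. On the FPKM values (pseudocount 0.1) Mup9, Mup18, Mup16 and Mup6 did not pass. Their log2 differences were -1.65, -1.40, -1.92 and -1.73 (limma, adjusted p = 0.119, 0.18, 0.0555 and 0.0961). Mup3 did not pass there either. Mup13 was at 287, 226 and 147 FPKM in WT Cre and 671, 594 and 943 FPKM in MCS controls. Levels and folds of these near copies thus depended on the measure, with log2 differences on FPKM of -1.77 for Mup13 and -3.00 for Mup12. Mup3 fell less, from 8693, 10188 and 11558 CPM in MCS to 5449, 5551 and 4612 CPM in WT Cre controls (log2 fold change -0.96 ± 0.17 SE, adjusted p = 0.0209), and was not a DEG. Mup7 and Mup8 had the lowest fitted values of the list (-7.07 and -7.03) and missed the threshold (adjusted p = 0.0763 and 0.0839), with Mup7 at 17.8, 17.4 and 2.104 CPM against 1124, 1252 and 2629.6 CPM. Mup8 was at 0.875, 0.824 and 0.238 CPM against 2.73, 96.1 and 155 CPM, with MCS control 1 nearer to the WT Cre livers than to the other MCS livers. The count of called members was 6 to 10 with 1 library left out, the lowest without WT Cre control 2 or 3, and 6 with the replicate block, where Mup1, Mup12, Mup16 and Mup17 had adjusted p values of 0.102, 0.071, 0.0747 and 0.0637. Mup17 lost its call without WT Cre control 2 or 3 (adjusted p up to 0.0615). Fitted on the 6 control libraries alone, Mup12, Mup16 and Mup17 did not pass. Mup1 lost its call without WT Cre control 1, 2 or 3 (adjusted p up to 0.0711). Mup3 lost its call without WT Cre control 1, 2 or 3 or MCS control 2 or 3 (adjusted p up to 0.124). Mup6 lost its call without any 1 of the 6 (adjusted p up to 0.16). The KO livers shared the virus with the WT Cre and the genotype with the MCS controls. In them Mup17 was at 0.956 to 2.06 CPM and Mup3 at 679.6 to 987 CPM, both below every control liver, and Mup12 was at 4.82 to 7.21 CPM, near the WT Cre range.

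**Figure D3:**
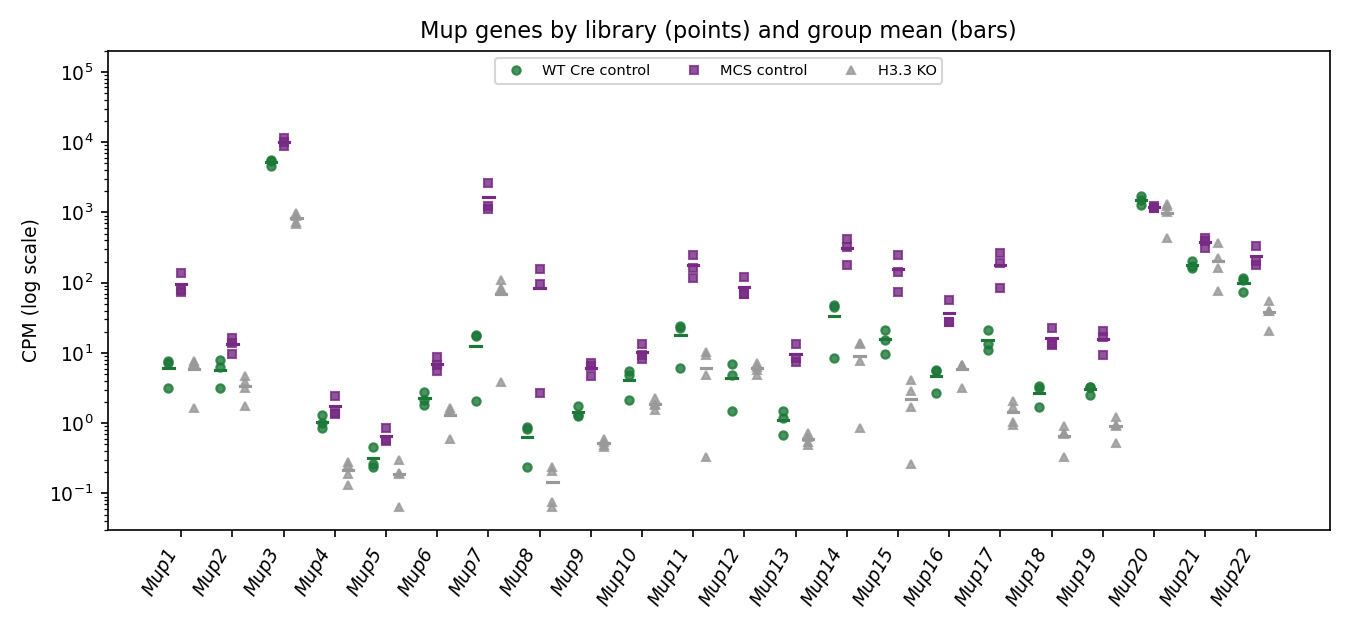
CPM on a log scale of the 22 tested Mup genes in each library (points) with group means (bars) for WT Cre controls, MCS controls and H3.3 KO. The MCS controls lay above all WT Cre controls for every gene but Mup20.

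Other male-biased liver genes leaned the same way, but few passed. Of 24 genes outside the Mup family that male liver expresses more than female liver, 22 had negative values, 15 had every WT Cre liver below every MCS liver (11.2% of all genes), and the median log2 fold change was -0.95, with 1 DEG (0.343% of all genes were lower DEGs). Cyp4a12b, a fatty acid omega-hydroxylase of male liver, was that DEG, at 10.3, 8.502 and 6.15 CPM in WT Cre and 54.96, 50.3 and 83.2 CPM in MCS controls (log2 fold change -2.91 ± 0.36 SE, adjusted p = 0.00623; adjusted p = 0.0546 with the replicate block). On the FPKM values it did not pass, with a log2 difference of -1.57 (limma, adjusted p = 0.134). Cyp2d9, a testosterone hydroxylase, was at 904, 823 and 632 CPM and 1414, 1403 and 1481 CPM (log2 fold change -0.87 ± 0.18 SE, adjusted p = 0.0421). Ugt2b1, a glucuronosyltransferase, was at 363, 342 and 361 CPM and 526, 594 and 826 CPM (log2 fold change -0.87 ± 0.18 SE, adjusted p = 0.0439). Cyp2d9 and Ugt2b1 did not pass on the FPKM values either. These calls near the threshold depended on single libraries. Cyp2d9 lost its call without any 1 of the 6 (adjusted p up to 0.234). Ugt2b1 lost its call without WT Cre control 1, 2 or 3 or MCS control 2 or 3 (adjusted p up to 0.198). Hsd3b5, a steroid-metabolising enzyme with one of the steepest male biases in mouse liver, showed a wide gap of means without passing, at 5.13, 7.89 and 0.953 CPM against 225, 366 and 128 CPM (log2 fold change -5.69 ± 1.32 SE, adjusted p = 0.125). Elovl3, which lengthens fatty acids, overlapped between the groups, at 303, 432 and 289.9 CPM and 403, 373 and 663 CPM. Without WT Cre control 3, the liver lowest in most of these genes, 23 of 24 values were negative with a median of -0.86.

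Female-biased genes leaned upward in the WT Cre controls, less evenly. Of 32 such genes, 24 had positive values and 8 negative, with a median log2 fold change of 0.49 (0.45 without the 5 members whose libraries held 3 counts or fewer in a group), and 2 were DEGs, both higher (0.298% of all genes). Slc16a5, a monocarboxylate transporter, was at 25.6, 15.3 and 26.04 CPM in WT Cre and 5.98, 3.71 and 7.04 CPM in MCS controls (log2 fold change 2.004 ± 0.24 SE, adjusted p = 0.00246), and at 60.7 to 75.98 CPM in KO. Slc22a26, an organic anion transporter, was at 5.75, 4.42 and 6.43 CPM and 0.692, 0.268 and 0.335 CPM (log2 fold change 3.63 ± 0.51 SE, adjusted p = 0.00576). Cyp2a4, a steroid hydroxylase of female liver, was higher in all 3 WT Cre livers but uneven, and did not pass: WT Cre control 3 was at 114 CPM and the other 2 at 21.6 and 24.2 CPM (adjusted p = 0.0557). WT Cre control 3 set much of the list's shift, since without it the median was 0.28 with 21 positive values. All animals were labelled male. No gene of a 16-gene list for growth hormone and STAT5 signalling, which maintains the male pattern, passed (median -0.30).

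Some genes of the xenobiotic and oxidant response were higher in the WT Cre controls. The list of 41 NRF2 and CAR targets was put together after the values had been seen, so its counts describe these data and support nothing: 12 members passed, all higher (0.441% of all genes), 9 of them DEGs (0.298%), 26 had every WT Cre liver above every MCS liver (11% of all genes) and the median log2 fold change was 0.76 (0.67 without the 1 member at 3 counts or fewer). Gstm3, a glutathione S-transferase, was at 281, 372 and 517 CPM in WT Cre and 75.02, 67.2 and 87.2 CPM in MCS controls (log2 fold change 2.35 ± 0.25 SE, adjusted p = 0.00117), the highest again in WT Cre control 3. Nqo1, the quinone reductase by which NRF2 activity is often read, was at 20.1, 26.5 and 32.4 CPM and 6.47, 8.57 and 6.54 CPM (log2 fold change 1.87 ± 0.21 SE, adjusted p = 0.00117). Htatip2, an oxidoreductase, was at 72.7, 86.8 and 102 CPM and 25.2, 27.9 and 24.2 CPM (log2 fold change 1.76 ± 0.19 SE, adjusted p = 0.00117). Each of these 3 was raised in every WT Cre liver to well beyond the MCS range. Abcc4, an efflux pump for bile acids and conjugates at the sinusoidal membrane, was at 14.8, 9.98 and 16.1 CPM and 2.198, 2.098 and 2.79 CPM (log2 fold change 2.53 ± 0.27 SE, adjusted p = 0.00117). Cbr1, a carbonyl reductase, was at 140.2, 147 and 210.4 CPM and 67.2, 59.4 and 44.9 CPM (log2 fold change 1.53 ± 0.21 SE, adjusted p = 0.00455). Nfe2l2 itself was at 158, 133 and 141 CPM and 78.4, 62.4 and 76.5 CPM, a change just short of the size threshold (log2 fold change 0.99 ± 0.14 SE, adjusted p = 0.00473). Gstm1, of the same gene cluster as Gstm3, was at 3822, 3580.2 and 5233 CPM and 1696, 1667 and 1599 CPM (log2 fold change 1.35 ± 0.22 SE, adjusted p = 0.0116).

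The remaining members of that list were less firm. Gsta1, another glutathione transferase, was at 5.75, 5.47 and 17.2 CPM in WT Cre and 0.936, 0.804 and 1.06 CPM in MCS controls (log2 fold change 3.35 ± 0.57 SE, adjusted p = 0.0322), and its adjusted p was 0.0878 with the replicate block. Ephx1, microsomal epoxide hydrolase, was at 1019.9, 1125 and 1500.1 CPM and 532, 515 and 605 CPM (log2 fold change 1.14 ± 0.22 SE, adjusted p = 0.0322). Mgst3, Entpd5 and Ugdh, which makes the sugar donor for glucuronidation, passed with log2 fold changes of 1.01, 0.97 and 0.76. Several of these calls were lost when 1 library was left out. Gstm1 lost its call without WT Cre control 3 or MCS control 2 or 3 (adjusted p up to 0.0661). Gsta1 lost its call without MCS control 1, 2 or 3 (adjusted p up to 0.138). Ephx1 lost its call without any 1 of the 6 (adjusted p up to 0.174). Mgst3 lost its call without any 1 of the 6 (adjusted p up to 0.134). Entpd5 lost its call without WT Cre control 1 or 3 or MCS control 2 or 3 (adjusted p up to 0.0734). Ugdh lost its call without any 1 of the 6 (adjusted p up to 0.209). In all, 6 to 9 members passed with 1 control library left out, the fewest without MCS control 2 or 3. Classical NRF2 targets outside the calls included Gclm, a subunit of the enzyme that limits glutathione synthesis, at 254, 262 and 302 CPM and 209, 219.9 and 203 CPM (adjusted p = 0.506), and Hmox1, heme oxygenase, at 17.1, 17.1 and 17.7 CPM and 14.1, 13.8 and 42.4 CPM with its highest value in MCS control 3. Srxn1, sulfiredoxin, was at 75.8, 86.7 and 83.2 CPM and 36.1, 38.5 and 36.2 CPM without overlap. It did not pass (adjusted p = 0.757) in a fit whose spread also includes the KO livers, which ranged over 57.9 to 613 CPM. With the replicate block it passed (adjusted p = 0.000798). In that fit KO 4, the liver at 613 CPM, was the only one with its replicate number and added nothing to the spread. The core letters of the antioxidant response element, TGACNNNGC on either strand, were in 13 of 46 RefSeq promoters of the listed genes (28.26%; 11 of 37 genes) and in 12.39% of all promoters, a description and not evidence of binding. Among the called members Htatip2, Abcc4, Nfe2l2 and Ugdh held them, while Nqo1, Gstm3, Gstm1, Gsta1, Cbr1, Ephx1, Mgst3 and Entpd5 did not. The other listed genes with these letters were not called, Gclm and Srxn1 among them. The windows of 3 called members are shown with those letters in capitals (GRCm38.p6, 5′ to 3′ on the gene's strand), for Htatip2 at chr7:49759437-49759497, for Abcc4 at chr14:118676920-118676980 and for Ugdh at chr5:65435940-65436000.
Htatip2: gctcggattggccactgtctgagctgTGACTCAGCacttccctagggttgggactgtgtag
Abcc4: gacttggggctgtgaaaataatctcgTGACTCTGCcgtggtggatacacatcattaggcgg
Ugdh: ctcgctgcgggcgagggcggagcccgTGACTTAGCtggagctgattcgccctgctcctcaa
The letters began 49, 23 and 132 bases before the annotated start in these genes. Over the whole glutathione transferase family 3 of 23 genes passed, all higher (0.441% of all genes) and all on the list above. In this family 9 genes had every WT Cre liver above every MCS liver and 3 the reverse (11% and 11.2% of all genes), and the median was 0.02. The KO livers, which shared the virus with the WT Cre and the genotype with the MCS controls, had Nqo1 at 21.2 to 34.3 CPM and Gstm3 at 285 to 455 CPM, within or near the WT Cre range, whereas Gstm1 was at 1078 to 2064 CPM, within or near the MCS range.

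**Figure D4:**
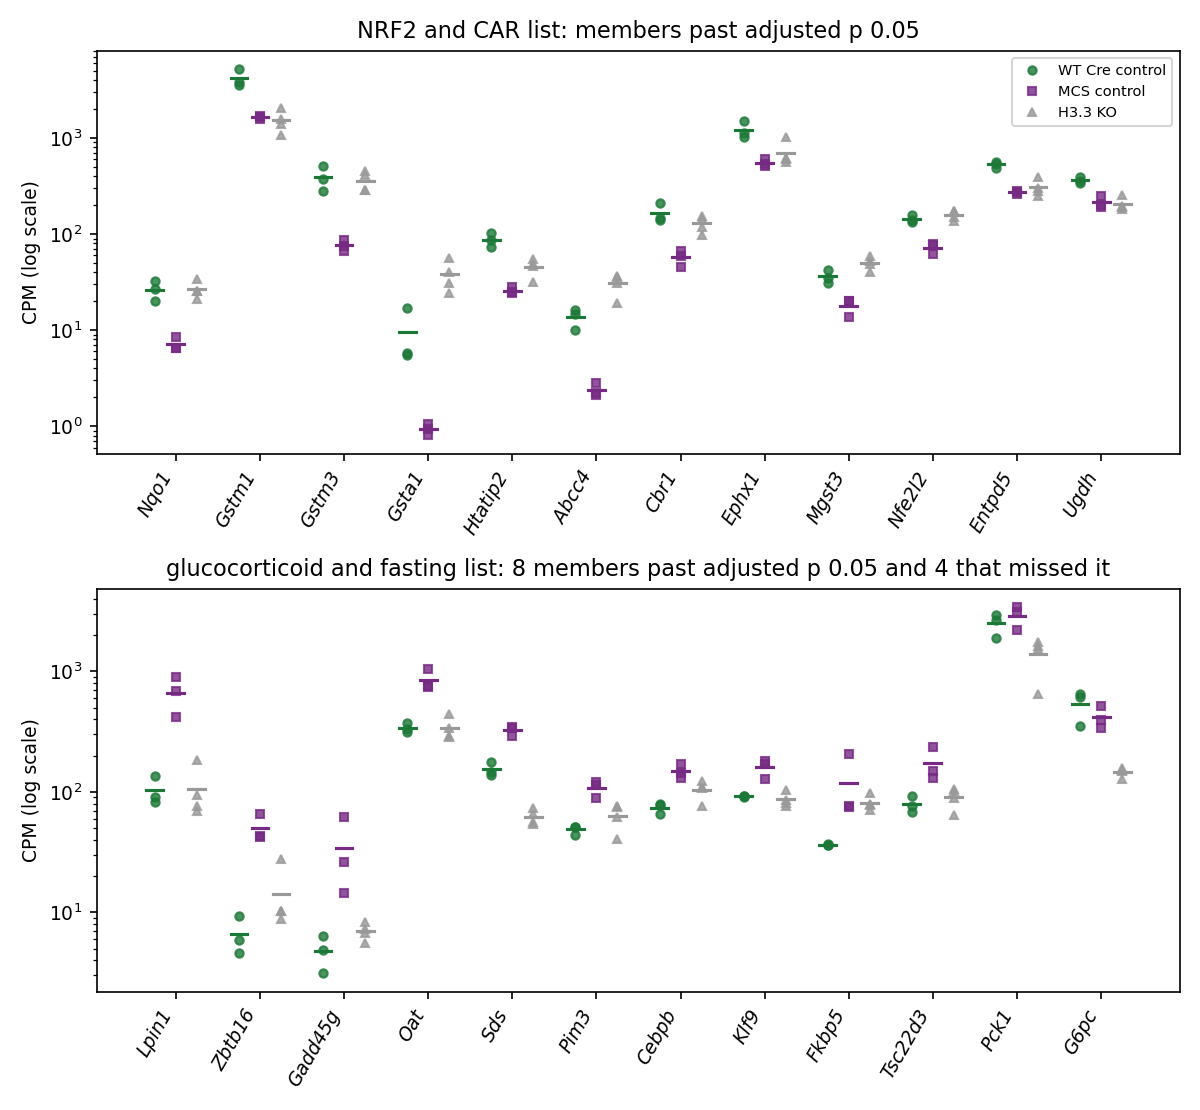
CPM on a log scale of the 12 called members of the NRF2 and CAR list (top) and of 12 members of the glucocorticoid and fasting list (bottom) in each library (points), with group means (bars). The WT Cre livers lay above all MCS livers for every gene in the top panel and below all of them for the first 10 genes in the bottom panel, while Pck1 and G6pc overlapped between the groups.

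Some targets of p53 were higher in the WT Cre controls. Of 30 listed targets, 4 passed and all were higher (0.441% of all tested genes passed as higher), 24 had positive values, 19 had every WT Cre liver above every MCS liver and none the reverse (11% and 11.2% of all genes), and the median log2 fold change was 0.55. Plk2, a kinase induced by DNA damage and other stresses, was at 29.1, 26.6 and 36.9 CPM in WT Cre and 10.7, 10.2 and 13.5 CPM in MCS controls (log2 fold change 1.43 ± 0.18 SE, adjusted p = 0.00246). Phlda3, which restrains AKT, was at 4.84, 7.85 and 8.26 CPM and 1.75, 1.38 and 1.51 CPM (log2 fold change 2.17 ± 0.35 SE, adjusted p = 0.0127). Aen, a nuclease of apoptosis, was at 20.9, 23.99 and 24.1 CPM and 13.03, 14.4 and 14.2 CPM (log2 fold change 0.73 ± 0.13 SE, adjusted p = 0.0235), and Zmat3, an RNA-binding protein, at 18.01, 17.96 and 23.7 CPM and 9.12, 8.97 and 13.5 CPM (log2 fold change 0.92 ± 0.17 SE, adjusted p = 0.0244). Of these only Plk2 held with any library left out. Phlda3 lost its call without WT Cre control 2 or 3 or MCS control 2 or 3 (adjusted p up to 0.0769). Aen lost its call without any 1 of the 6 (adjusted p up to 0.123). Zmat3 lost its call without WT Cre control 1, 2 or 3 or MCS control 1 or 2 (adjusted p up to 0.141). Cdkn1a, the p21 inhibitor of the cell cycle and the best known target, did not part the groups, at 39.3, 69.96 and 55.1 CPM and 25.7, 18.4 and 118 CPM, with MCS control 3 the highest. Mdm2, which degrades p53, was at 48.1, 47.2 and 47.2 CPM and 37.3, 30.98 and 38.7 CPM (adjusted p = 0.388). The count of called targets was 1 to 4 with 1 library left out, 1 without WT Cre control 2, WT Cre control 3 or MCS control 2, and 8 with the replicate block. Gm37795, an unclassified transcript that overlaps Mir34a, a microRNA induced by p53, was at 5.21, 6.07 and 4.29 CPM and 1.26, 0.982 and 1.12 CPM (log2 fold change 2.203 ± 0.25 SE, adjusted p = 0.00131), and Gdf15, a secreted stress hormone under both p53 and ATF4, was at 13.3, 13.9 and 14.3 CPM and 4.76, 5.54 and 4.02 CPM (log2 fold change 1.53 ± 0.16 SE, adjusted p = 0.00117). In KO livers, where Cre and floxed genes came together, Plk2 was at 37.98 to 59.5 CPM and Gdf15 at 16.4 to 23.4 CPM.

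Among 30 cell cycle genes 1 passed (0.927% of all genes), and levels were low in all control livers. Mcm2, a subunit of the helicase that opens replication origins, was at 5.13, 4.99 and 4.92 CPM in WT Cre and 2.36, 2.37 and 2.01 CPM in MCS controls (log2 fold change 1.15 ± 0.202 SE, adjusted p = 0.0183). Mcm2 lost its call without any 1 of the 6 (adjusted p up to 0.0775). Mki67, a marker of dividing cells, was at 1.75, 3.08 and 3.41 CPM and 1.42, 2.098 and 1.79 CPM, and Top2a, the mitotic topoisomerase, at 2.001, 2.73 and 2.501 CPM and 1.22, 1.21 and 1.68 CPM, and neither passed (adjusted p = 0.545 and 0.377). The list's median was 0.42 with 22 positive values of 30.

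Interferon-stimulated genes leaned upward in the WT Cre controls without any of the 32 passing. Positive values were found in 30 of 32 with a median of 0.54, and 10 had every WT Cre liver above every MCS liver (11% of all genes). WT Cre control 2 set the size of this lean. Ifit1, which binds foreign RNA, was at 18.1, 52.8 and 22.6 CPM in WT Cre and 9.57, 14.3 and 12.6 CPM in MCS controls (log2 fold change 1.36 ± 0.39 SE, adjusted p = 0.185). Isg15, a ubiquitin-like modifier, was at 15.2, 47.02 and 21.2 CPM and 11.4, 18.4 and 11.4 CPM (adjusted p = 0.35). Usp18, which removes that modifier, was at 18.3, 44.2 and 24.97 CPM and 8.35, 14.2 and 10.1 CPM (adjusted p = 0.0994, and 0.00264 with the replicate block, with which 4 genes of the list passed). Without WT Cre control 2, 27 of 32 values were positive with a median of 0.27. Cmpk2, a mitochondrial nucleotide kinase that interferon induces, was not on the list and was a DEG, at 14.01, 32.3 and 20.3 CPM and 6.19, 8.84 and 8.27 CPM (log2 fold change 1.52 ± 0.26 SE, adjusted p = 0.0177), with its highest value again in WT Cre control 2. Cmpk2 lost its call without WT Cre control 3 or MCS control 1, 2 or 3 (adjusted p up to 0.0775). It was singled out after its values had been seen.

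All 26 acute phase genes had negative values, and none passed. Their median log2 fold change was -0.90, and 14 had every WT Cre liver below every MCS liver (11.2% of all genes). MCS control 3, described above, carried the size of these values: without it 22 of 26 were negative with a median of -0.32. Heat shock genes, of which that liver was also the highest in 12 of 13, had a median of -0.09 with none called, and without that liver 12 of 13 values were positive with a median of 0.44. Hepatocyte genes for plasma proteins were lower in part: of 26 hepatocyte markers 2 passed, both lower (0.486% of all genes), with a median of -0.24. Ahsg, fetuin A, was at 4386, 4526 and 3416 CPM in WT Cre and 6269, 7244 and 8119 CPM in MCS controls (log2 fold change -0.81 ± 0.17 SE, adjusted p = 0.0436), and Serpina1a, an alpha-1 antitrypsin, at 881, 978 and 751 CPM and 1346, 1374 and 1403 CPM (log2 fold change -0.66 ± 0.13 SE, adjusted p = 0.0301). Both calls failed in the leave-outs. Ahsg lost its call without any 1 of the 6 (adjusted p up to 0.237). Serpina1a lost its call without any 1 of the 6 (adjusted p up to 0.184). Serpina1a is 1 of 21 tested genes of the Serpina family, of which 19 had negative values (median -0.74) and which hold near copies.

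Some of the genes that glucocorticoids or fasting induce in liver were lower in the WT Cre controls. This list of 25 was also put together after the values had been seen: 8 members passed, all lower (0.486% of all genes), 6 of them DEGs (0.343%), 15 had every WT Cre liver below every MCS liver (11.2%) and the median log2 fold change was -1.09. Lpin1, a phosphatidate phosphatase and co-activator that glucocorticoids and fasting raise, was at 135, 90.7 and 82.2 CPM in WT Cre and 419, 686 and 896 CPM in MCS controls (log2 fold change -2.700 ± 0.43 SE, adjusted p = 0.0225). In the deposited FPKM table the cells of Lpin1 are blank in all 3 MCS livers and hold values in the WT Cre livers, and what a blank stands for was not stated, so that table does not give its direction. Zbtb16, a transcription factor induced by glucocorticoids, was at 4.63, 5.899 and 9.25 CPM and 43.2, 42.1 and 65.2 CPM (log2 fold change -2.92 ± 0.49 SE, adjusted p = 0.0323). Oat, ornithine aminotransferase, was at 373, 335 and 315 CPM and 759, 738 and 1041 CPM (log2 fold change -1.31 ± 0.19 SE, adjusted p = 0.00576). Sds, serine dehydratase, which feeds serine into gluconeogenesis, was at 178, 137 and 145 CPM and 347, 339 and 291 CPM (log2 fold change -1.09 ± 0.15 SE, adjusted p = 0.0044). Gadd45g, Pim3, Cebpb and Klf9 also passed, with log2 fold changes of -2.83, -1.15, -0.997 and -0.81. Sds was the only 1 of the 8 that kept its call in every leave-out. Oat lost its call without WT Cre control 3 (adjusted p = 0.0617). Lpin1 lost its call without WT Cre control 1, 2 or 3 or MCS control 2 or 3 (adjusted p up to 0.122). Zbtb16 lost its call without any 1 of the 6 (adjusted p up to 0.141). Gadd45g lost its call without WT Cre control 1, 2 or 3 or MCS control 2 (adjusted p up to 0.181). Pim3 lost its call without WT Cre control 1, 2 or 3 or MCS control 1 or 3 (adjusted p up to 0.12). Cebpb lost its call without WT Cre control 1, 2 or 3 or MCS control 3 (adjusted p up to 0.114). Klf9 lost its call without WT Cre control 1, 2 or 3 or MCS control 2 or 3 (adjusted p up to 0.153). In all 1 to 7 members passed with 1 library left out, fewest without WT Cre control 3. Fkbp5, a chaperone of the glucocorticoid receptor and a standard readout of it, was at 36.2, 36.9 and 36.2 CPM and 76.7, 74.7 and 206 CPM and just missed the threshold (adjusted p = 0.0669), with MCS control 3 the highest. Pck1, the enzyme that commits carbon to gluconeogenesis, overlapped at 2932, 1906 and 2659 CPM and 3421, 2202 and 3084 CPM. Of 21 circadian clock genes none passed (median -0.07), and Per1, a clock gene that glucocorticoids also raise, was at 28.6, 15.1 and 22.4 CPM and 60.5, 32.1 and 41.97 CPM.

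Other metabolic genes moved one by one rather than as pathways. Of 25 fasting and PPARA targets 1 passed (0.927% of all genes), and their median was 0.07. That 1 was Pdk4, which shuts pyruvate dehydrogenase, at 23.2, 17.1 and 26.7 CPM in WT Cre and 5.37, 3.84 and 8.61 CPM in MCS controls (log2 fold change 1.92 ± 0.27 SE, adjusted p = 0.00661), the direction opposite to that of the fasting genes above. Acot3, a peroxisomal acyl-CoA thioesterase, was at 30.5, 12.01 and 46.4 CPM and 6.43, 3.04 and 3.07 CPM (log2 fold change 2.81 ± 0.49 SE, adjusted p = 0.0397), with an adjusted p of 0.0718 with the replicate block. Acot3 lost its call without WT Cre control 1 or 3 or MCS control 2 or 3 (adjusted p up to 0.154). Csad, the decarboxylase that makes taurine precursors, was at 801, 860.0 and 754 CPM and 258, 292 and 151 CPM (log2 fold change 1.79 ± 0.22 SE, adjusted p = 0.00219). Its KO livers were at 615 to 929 CPM, above every MCS liver. In 25.3% of all tested genes every KO liver lay beyond every MCS liver on the side of the WT Cre controls. None of 24 cholesterol synthesis genes passed, 1 of 20 lipogenesis genes did (Lpin1) and 1 of 20 for bile acid synthesis and transport did (Abcc4). Single libraries set the sign of the first 2 medians: for cholesterol synthesis it was -0.04, but -0.27 without WT Cre control 1 and 0.19 without WT Cre control 3, and for lipogenesis 0.21, but -0.13 without WT Cre control 1. Among 83 Cyp genes 4 passed (0.927% of all genes), with a median of -0.20 and 54 negative values: Cyp4b1 was higher, and Cyp4a12b, Cyp2d9 and Cyp2c54 were lower. Cyp4b1, which hydroxylates fatty acids, was at 16.9, 13.01 and 14.97 CPM and 4.803, 3.75 and 4.69 CPM (log2 fold change 1.76 ± 0.16 SE, adjusted p = 0.000626). Cyp2c54, an epoxygenase with near copies, was at 164, 98.1 and 70.7 CPM and 274, 296 and 406 CPM (log2 fold change -1.55 ± 0.31 SE, adjusted p = 0.0469), with an adjusted p of 0.0648 with the replicate block. Cyp2c54 lost its call without WT Cre control 2 or 3 or MCS control 1, 2 or 3 (adjusted p up to 0.179). Of 18 Ugt genes, Ugt2b34 and Ugt2b35 were higher (0.65 and 0.94 on the log2 scale) and Ugt2b1 lower, and of 16 carboxylesterases Ces1d was higher (0.79) and Ces4a lower (-2.101). Over all genes 0.441% passed as higher and 0.486% as lower. All 4 new names lost their call in leave-outs. Ugt2b34 lost its call without any 1 of the 6 (adjusted p up to 0.157). Ugt2b35 lost its call without WT Cre control 1, 2 or 3 or MCS control 1 or 3 (adjusted p up to 0.153). Ces1d lost its call without any 1 of the 6 (adjusted p up to 0.143). Ces4a lost its call without WT Cre control 1, 2 or 3 or MCS control 2 or 3 (adjusted p up to 0.157).

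**Figure D5:**
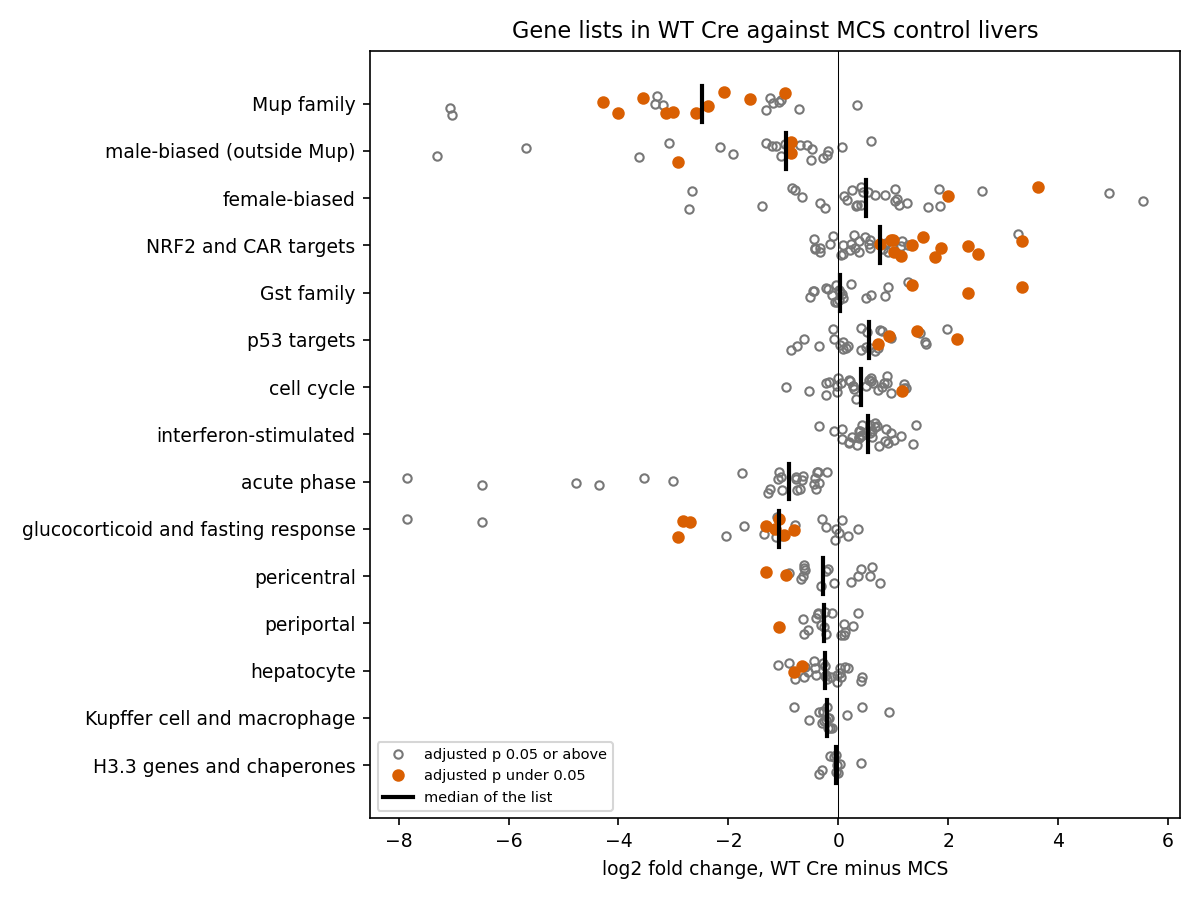
Log2 fold change of WT Cre minus MCS controls (horizontal axis) for the tested members of 15 gene lists (rows), 1 circle per gene, filled where the adjusted p was under 0.05, with a bar at the list's median. The Mup, male-biased, acute phase and glucocorticoid lists have medians of -2.48, -0.95, -0.90 and -1.09, the NRF2 and CAR list 0.76, and the H3.3 list -0.05.

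Few markers of liver zones passed the test, and of the markers of other cell types 1 did, Cela1 of the pancreas list. In whole liver, fewer cells of a type and less RNA per cell cannot be told apart. Of 18 pericentral genes 2 passed, both lower (Oat, given above, and Slc1a2), and of 18 periportal genes 1 did (Sds), with medians of -0.27 and -0.26. Over all genes 0.486% passed as lower. Slc1a2, a glutamate transporter of pericentral hepatocytes, was at 91.5, 84.4 and 81.4 CPM in WT Cre and 142, 149.9 and 204 CPM in MCS controls (log2 fold change -0.95 ± 0.15 SE, adjusted p = 0.00993). Slc1a2 lost its call without WT Cre control 2 or 3 (adjusted p up to 0.0711). No marker of cholangiocytes, stellate cells, endothelial cells, Kupffer cells, T and NK cells, B and plasma cells, neutrophils or red blood cells passed, of 13, 16, 16, 17, 18, 17, 10 and 8 tested. Their medians ran from -0.52 (neutrophil) to 0.38 (cholangiocyte). Without MCS control 3 the neutrophil median turned to 0.20 and the Kupffer cell and macrophage median from -0.20 to 0.096. Summed over the 17 Kupffer cell and macrophage markers, MCS control 3 was at 645 CPM and the other control livers at 348 to 425 CPM, and its neutrophil sum was 15.9 CPM against 4.23 to 6.68 CPM, with the defining markers Camp, Ly6g and Mpo under the count minimum of 10. The part of these cells in the acute phase values of that liver was not tested. Cela1, an elastase first known from the pancreas, was at 5.88, 8.81 and 7.18 CPM and 30.7, 28.2 and 31.8 CPM (log2 fold change -2.05 ± 0.26 SE, adjusted p = 0.00448), while the digestive enzymes Cpa1, Prss1, Prss2, Clps and Ctrb1 were under the count minimum.

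The gene with the smallest adjusted p was Papss1 (chr3:131564768-131643671, mm10), which makes the sulfate donor for all sulfotransferases. It was at 18.8, 19.996 and 18.02 CPM in WT Cre and 4.52, 5.0003 and 4.81 CPM in MCS controls (log2 fold change 1.99 ± 0.14 SE, adjusted p = 9.69e-05), with the KO livers between at 7.92 to 10.3 CPM. Of 17 genes for sulfate activation and transfer it was the only 1 to pass as higher (0.441% of all genes). Sult5a1, a sulfotransferase, was the only 1 to pass as lower (0.486% of all genes), at 3.38, 6.07 and 2.14 CPM and 21.9, 18.5 and 29.2 CPM (log2 fold change -2.59 ± 0.396 SE, adjusted p = 0.0152). The next was Slc1a4 (chr11:20302180-20332713), a transporter of serine, alanine and threonine, at 10.05, 14.7 and 12.03 CPM and 3.18, 3.13 and 2.46 CPM (log2 fold change 2.06 ± 0.16 SE, adjusted p = 0.000141). Of 25 amino acid transporters it was the 1 that passed as higher, while Slc43a1, a carrier of branched-chain amino acids, passed as lower with Slc1a2, at 2.83, 2.73 and 1.75 CPM and 6.35, 10.5 and 15.3 CPM (log2 fold change -2.13 ± 0.396 SE, adjusted p = 0.0342). Sult5a1 lost its call without WT Cre control 1 or MCS control 3 (adjusted p up to 0.0843). Slc43a1 lost its call without WT Cre control 1, 2 or 3 or MCS control 2 or 3 (adjusted p up to 0.157). Slc1a4 is a known ATF4 target, and of 20 ATF4 response genes Gdf15 rose and Chac1, which degrades glutathione, fell, at 1.92, 3.69 and 2.34 CPM and 5.62, 10.8 and 9.22 CPM (log2 fold change -1.69 ± 0.29 SE, adjusted p = 0.0157). Chac1 lost its call without WT Cre control 1 or 3 or MCS control 2 or 3 (adjusted p up to 0.109). Herpud1, which serves the degradation of misfolded proteins at the endoplasmic reticulum, was the only 1 of 18 chaperone and folding genes to pass, at 330.3, 267 and 285 CPM and 745, 616 and 659 CPM (log2 fold change -1.19 ± 0.13 SE, adjusted p = 0.00117), with all 4 KO livers at 226 to 275 CPM, below every MCS liver.

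Several of the higher genes were low in the MCS controls. Tuba8, an alpha-tubulin of testis and muscle, was at 3.13, 2.78 and 2.42 CPM in WT Cre and 0.448, 0.6697 and 0.391 CPM in MCS controls (log2 fold change 2.44 ± 0.25 SE, adjusted p = 0.00115), and at 58.8 to 90.5 CPM in KO. Atp2b2, a calcium pump of the plasma membrane, was at 10.2, 9.07 and 14.5 CPM and 2.16, 2.46 and 2.63 CPM (log2 fold change 2.23 ± 0.24 SE, adjusted p = 0.00117). Fbxo44, an adaptor of a ubiquitin ligase, was at 3.25, 2.82 and 2.54 CPM and 0.163, 0.134 and 0.168 CPM (log2 fold change 4.17 ± 0.42 SE, adjusted p = 0.00109), with at most 4 counts in any MCS library. The first 2 were higher still in most KO livers, whereas Fbxo44 was at 0.1303 to 0.632 CPM there, below every WT Cre liver. Gprc5b, an orphan receptor, was at 9.96, 8.37 and 7.58 CPM and 0.692, 0.5804 and 0.615 CPM (log2 fold change 3.76 ± 0.55 SE, adjusted p = 0.0108). Gprc5b lost its call without MCS control 1, 2 or 3 (adjusted p up to 0.0716). Kcnk10, a potassium channel, was at 1.67, 1.82 and 1.47 CPM in WT Cre controls, 0.0407, 0.0893 and 0.0559 CPM in MCS controls and 0 in all 4 KO livers (adjusted p = 0.00155). Ifi208, a member of the interferon-inducible HIN-200 family with near copies, was at 1.25, 1.69 and 0.953 CPM and 0.0814, 0.0446 and 0.0559 CPM (adjusted p = 0.00661). No MCS library held more than 2 counts of either gene, so no fold is given. Gm33699, a long intergenic RNA, was at 1.501, 2.21 and 1.63 CPM and 0.244, 0.134 and 0.0559 CPM (log2 fold change 3.49 ± 0.399 SE, adjusted p = 0.00126).

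Among the lower genes with the smallest adjusted p were enzymes, signalling proteins and copies of other genes. Tymp, thymidine phosphorylase, was at 29.3, 30.6 and 30.8 CPM in WT Cre and 109.6, 99.2 and 92.6 CPM in MCS controls (log2 fold change -1.73 ± 0.19 SE, adjusted p = 0.00117), and overlaps Sco2 on the same strand. Camk2b, a calcium-dependent kinase, was at 6.71, 6.81 and 3.85 CPM and 26.01, 20.8 and 21.5 CPM (log2 fold change -1.98 ± 0.23 SE, adjusted p = 0.00134). For both genes the 3 values within each group were close together beside the gap between groups. Eno1b, a copy of the glycolytic enolase gene Eno1 that was inserted elsewhere in the genome, was at 6.54, 4.901 and 6.51 CPM and 52.2, 56.9 and 48.8 CPM (log2 fold change -3.13 ± 0.305 SE, adjusted p = 0.00117). Its reads are hard to part from those of Eno1, and in the FPKM table the log2 difference was -0.31 with an adjusted p of 0.643, so its call holds for the count table only. Gm6969, a processed pseudogene, was at 1.75, 1.52 and 1.63 CPM and 7.69, 7.63 and 8.55 CPM (log2 fold change -2.28 ± 0.18 SE, adjusted p = 0.000141), and Gm42427, an unclassified transcript, at 2.21, 2.13 and 1.55 CPM and 10.3, 10.1 and 6.26 CPM (log2 fold change -2.18 ± 0.27 SE, adjusted p = 0.00214). Gm43305, a processed transcript, was at 3.54, 5.34 and 5.12 CPM and 101, 101 and 211 CPM (log2 fold change -4.88 ± 0.56 SE, adjusted p = 0.00651), and the intergenic RNA Gm46620 was at 0.917, 1.13 and 0.516 CPM and 6.51, 4.78 and 6.48 CPM (log2 fold change -2.79 ± 0.303 SE, adjusted p = 0.00117). Pseudogenes and unclassified transcripts of this kind may take reads from their parent genes. The intergenic RNAs Gm42031, Gm4316 and Gm31121 were named for the size of their change, and none held its call with every library left out: Gm42031 was at 0.0834, 0.1301 and 0.159 CPM and 5.62, 5.27 and 7.54 CPM. Gm42031 lost its call without any 1 of the 6 (adjusted p up to 0.14). Gm4316 lost its call without any 1 of the 6 (adjusted p up to 0.146). Gm31121 lost its call without WT Cre control 1, 2 or 3 or MCS control 1 or 3 (adjusted p up to 0.148).

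The position of the DEGs was examined because the floxed alleles were brought in by breeding, so that DNA near H3f3a and H3f3b can come from another strain. H3f3a lies at chr1:180800832-180813943 and H3f3b at chr11:116021912-116027962 (mm10). Within 5 Mb of H3f3a 1 of 102 tested genes was a DEG, Ephx1 (0.980%). Within 10 Mb 4 of 227 were DEGs (1.76%), with Ifi208 and Pcp4l1 among them. Near H3f3b 2 of 215 within 5 Mb and 2 of 298 within 10 Mb were DEGs, Slc16a5 and Gm11695, which overlap on opposite strands and may share reads. The shares near H3f3b, 0.930% and 0.671%, and those near H3f3a, 0.980% and 1.76%, stand beside 0.641% over all genes. Each rests on 1 to 4 genes. Of the 5 genes named here, Ifi208 and Slc16a5 held with any library left out. Ephx1 lost its call without any 1 of the 6 (adjusted p up to 0.174). Pcp4l1 lost its call without any 1 of the 6 (adjusted p up to 0.169). Gm11695 lost its call without WT Cre control 1 or 3 or MCS control 1, 2 or 3 (adjusted p up to 0.197). By chromosome, 4 held the most DEGs (21 of 1354, 1.55%), 9 of them the DEGs of the Mup family and 1 more a Mup pseudogene, and 8 the next (17 of 1159, 1.47%). On chromosome 8, Fbxo31, Sult5a1, Gm4316 and Spata2l lie between 120 and 130 Mb, were all lower and all overlap the annotated gene Gm20388, and the FPKM cells of all 4 are blank in every library. Fbxo31, a cyclin D1 ubiquitin ligase adaptor, was at 31.1, 28.5 and 26.5 CPM in WT Cre and 65.7, 54.6 and 104 CPM in MCS controls (log2 fold change -1.38 ± 0.21 SE, adjusted p = 0.00789), and Spata2l at 21.7, 17.003 and 20.4 CPM and 56.8, 32.3 and 42.03 CPM (log2 fold change -1.15 ± 0.18 SE, adjusted p = 0.0106). Fbxo31 lost its call without WT Cre control 2 or 3 (adjusted p up to 0.065). Spata2l lost its call without WT Cre control 2 or 3 (adjusted p up to 0.065).

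The choice of control also bears on the KO contrasts, which share these controls and were fitted together with them. H3.3 KO livers gave 3566 DEGs (15.9%) against the WT Cre controls and 3926 (17.5%) against the MCS controls. Some genes that differed between the controls changed their call with the control used. Gstm1 was at 1078 to 2064 CPM in KO, which was a log2 fold change of -1.46 against WT Cre (adjusted p = 0.000315) and -0.11 against MCS controls (adjusted p = 0.722). Nqo1 showed the reverse, with 0.01 (adjusted p = 0.965) and 1.89 (adjusted p = 5.45e-05). Eno1b likewise stood at 3.76 against WT Cre (adjusted p = 3.12e-05) and 0.63 against MCS (adjusted p = 0.0915), with KO livers at 59.8 to 134 CPM. That held for the counts only. On FPKM its KO livers (99.5 to 214) lay above both the WT Cre (58.5 to 66.9) and the MCS controls (72.7 to 86.1). For Papss1 the sign itself turned: -1.09 against WT Cre (adjusted p = 9.15e-05) and 0.898 against MCS (adjusted p = 0.000387). Fbxo44 turned in the same way, at -2.68 (adjusted p = 0.000147) and 1.48 (adjusted p = 0.0286). Its sign against MCS rests on few reads, since no MCS library held more than 4 counts of it. KO 1 (0.1303 CPM) was not above the MCS range (0.134 to 0.168 CPM). Slc1a4 and Mup17 instead lay on the same side of both controls, Slc1a4 at 1.76 and 3.83 and Mup17 at -3.38 and -6.94 (adjusted p = 0.00103 and 3.23e-05). These 7 genes were picked from the named genes after their values were seen and show the range of cases, not how often each occurs.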

How the data were processed

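Poly(A) RNA-seq libraries of whole mouse liver were strand-specific, and the strand setting of the counting was not stated. The authors aligned reads with STAR to mm10 and deposited whole-number counts per gene, without normalization, together with FPKM values for the same genes. The study's methods name HOMER for counting, and the submitters' processing notes list HTSeq and Cufflinks. Blank FPKM cells, whose meaning was not stated, were read as 0, and FPKM served only as an alternative. Control columns were matched to samples by library number. Counts were tested with edgeR 4.0.16 (R 4.3.3): TMM, robust quasi-likelihood F test, two-sided, 3 groups over all 10 libraries, genes with at least 10 summed counts, Benjamini-Hochberg adjustment over all of them. A DEG had to pass both 0.05 on the adjusted p and 1 on the absolute log2 scale. CPM is on the TMM-adjusted library size. The SE was taken from F, as the estimate over its root. The labels number the replicates without stating that each is a separate animal. Each was taken as a separate animal, and p-values measure only the spread between these samples. Within the control groups that spread went beyond counting error (11.2 to 46.7 per degree of freedom). How much of it was technical was not tested.

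Genes were named by rule: among DEGs without overlap and with a mean CPM of at least 1, the 12 with the smallest adjusted p and the 4 with the largest change in each direction, then H3f3a, H3f3b, Hira and Nnt, up to 4 members per list and DEGs within 5 Mb of H3f3a or H3f3b. Further genes were named after their values were seen, namely those outside this rule, and 2 genes are not reported here. Groups, lists and the rule were chosen with earlier results of these data known, and the NRF2 and CAR list and the glucocorticoid and fasting list were added after seeing these values. Deviations of same-numbered WT Cre and MCS livers from their group means correlated at 0.128, 0.137 and 0.1001 across genes, against -0.137 to 0.00399 for other pairs. The numbers come from the sample titles, which do not say that same-numbered livers belong together. They were treated as pairing the livers in an alternative fit. That fit was chosen from these same values, so calls gained with it have no independent support. Alternatives were DESeq2 1.42.0, other scalings and filters, the controls alone, the replicate block, limma 3.58.1 on FPKM and leaving out each library. Scripts were tested on simulated data. Coordinates and overlaps are from GENCODE M21 (mm10).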

Additional observations from a re-analysis of the deposited data

Results flagged for a closer look

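In 15 of 113 genes examined, 1 of the 4 H3.3 KO livers lay far from the other 3 by Dixon's test, which chance alone gives in about 1 in 20 groups. Groups of 3 were not tested, so no control liver could be flagged. KO 1, the library with the fewest counts, gave 8 of these values. It was higher than the other KO livers for Ephx1 (1019 CPM against 560 to 619), Eno1b (133.7 CPM against 59.8 to 69.1), Phlda3 (9.84 CPM against 3.98 to 4.85) and Slc22a26 (3.65 CPM against 0.956 to 1.35). It was lower for Cyp4a12b (7.17 CPM against 17.2 to 18.8), Mup1 (1.63 CPM against 7.15 to 7.75), Mup16 (3.19 CPM against 6.52 to 6.81) and Mcm2 (4.50 CPM against 6.91 to 7.11). KO 4 was higher for Srxn1 (613 CPM against 57.9 to 74.0), Mt1 (99.1 CPM against 25.3 to 35.8), Mt2 (96.0 CPM against 20.6 to 25.5) and Zbtb16 (27.9 CPM against 8.73 to 10.3). KO 3 was higher for Gm4316 (9.90 CPM against 1.56 to 2.25) and Isg15 (32.9 CPM against 28.4 to 29.0). KO 2 was the only KO liver with any count of Gm31121 (0.0791 CPM). The KO livers entered the fit of the controls through the shared dispersion, and leaving out KO 1 raised the DEGs between the controls to 259.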

How the results depend on the processing

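The number of DEGs between the control groups depended on the fit. Their direction did not in the fits of the counts, where all 144 kept their sign in every fit that tested them. In each of the 2 FPKM fits 137 kept their sign, 3 had the other sign and 4 had no value. Against 144 DEGs (67 higher, 77 lower), DESeq2 gave 314 (147 higher, 167 lower), the 6 control libraries alone 278 (149 and 129), the fit without KO replicate 1 259 (129 and 130), and limma on log2(FPKM + 1) 95, with 49 lower. Of the 144, 60 were called on log2(FPKM + 1) and 82 on log2(FPKM + 0.1). The 6 control libraries alone gave 128 of the 144. Among named genes, Mup12, Mup16, Mup17, Gsta1, Cmpk2, Acot3, Gadd45g, Cyp2c54 and Fbxo31 did not pass in that fit. The replicate block gave 221 (118 higher), and the block within the 6 controls 353 (189 and 164); beyond the calls named in the report, the block over all 3 groups changed no other call of a named gene. Library size in place of TMM gave 116 higher DEGs with all genes shifted by a median of 0.136. Leaving out 1 control library gave 66 to 117 DEGs, 34 to 53 of them higher and 28 to 64 lower. DEGs within 10 Mb of H3f3a or H3f3b numbered 6, 10 with DESeq2, 2 to 3 with 1 control library left out and 8 without KO replicate 1. KO contrasts gave 1124 DEGs against WT Cre and 1371 against MCS controls with limma on log2(FPKM + 1). Small differences turned sign. H3f3a moved to 0.11 with library size and to 0.151 and 0.153 with FPKM (pseudocounts 1 and 0.1). H3f3b moved to 0.067, 0.148 and 0.15 in the same fits and ran from -0.198 to 0.102 with 1 library left out, positive without MCS control 3. Hira moved to 0.12, 0.215 and 0.26, and ran from -0.173 to 0.148 with 1 library left out, positive without WT Cre control 1, MCS control 1 or MCS control 2. Hmox1 ran from -0.697 to 0.317, positive without MCS control 3, and Cdkn1a from -0.386 to 1.31, negative without WT Cre control 2, MCS control 1 or MCS control 2. Lpin1 was 4.00 and 7.24 with FPKM, values that rest on reading its blank MCS cells as 0. The cause was not tested for the others. All other filters and scalings kept the number of DEGs within 1.5 times. With 3 livers a group, genes under a few CPM and changes under 2-fold are the least certain.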
